A study of Mus musculus with 8 samples.

Results

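Homeostatic microglia genes are the genes by which resting microglia, the resident macrophages of the brain, are usually recognised. The 9 genes described here were chosen by symbol: *P2ry12*, *P2ry13*, *Gpr34*, *Cx3cr1*, *Csf1r*, *Tgfbr1*, *Tmem119*, *Siglech* and *Sall1*. All 9 were found among the 31053 genes counted. They were followed in single-nucleus RNA-seq (snRNA-seq) of cortex from naive C57BL6J mice aged 6 weeks, with 4 Wt (Ifnar1+/+) mice and 4 Ifnar1-/- mice that lack a chain of the type I interferon receptor in every cell. Each genotype had 2 females (F1 and F2) and 2 males (M1 and M2), and each mouse gave 1 library. Counts are unique molecular identifiers (UMIs), each standing for 1 captured RNA molecule, and nuclei hold mostly nascent and newly made RNA.

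Most of the 9 genes encode receptors at the microglial surface. *P2ry12* and *P2ry13* encode receptors for ADP, with which microglial processes sense nucleotides released by nearby cells, and *Gpr34* encodes a receptor of the same branch that binds lysophosphatidylserine. *Cx3cr1* encodes the receptor for fractalkine (*Cx3cl1*), *Csf1r* the receptor for CSF-1 and IL-34 on which microglial survival depends, and *Tgfbr1* the type I receptor for TGF-beta, a cytokine needed for the microglial state. *Siglech* encodes a sialic acid-binding lectin, *Tmem119* a membrane protein, and *Sall1* a zinc finger transcription factor that holds microglial identity. The cortical tissue was compared here to ask how these genes stood in microglia without type I interferon receptor signalling, and how many of their UMIs lay in other cells.

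RefSeq start-site windows on GRCm38.p6 were at hand for 6 of the 9 genes, and the 250 bases before each start were searched on both strands for short motifs of factors known in myeloid cells. AGGAAGT, a core recognised by the myeloid factor PU.1, was found for *P2ry12* and for 1 of 3 start sites of *Sall1*, and in 7.69% of all 32851 windows. TTCNNNGAA, the element bound by STAT factors, was found for *Siglech* and in 7.02% of all windows. No window of the 6 genes held the core of the interferon-stimulated response element (2.98% of all windows), GTCTAGAC (SMAD box, 0.167%), TATTTATA (1.56%) or TATTTTTA (2.45%, both MEF2 cores). The windows of *P2ry12* (chr3:59262986-59263235, minus strand) and *Siglech* (chr7:55767934-55768183, plus strand) are shown 5′ to 3′ up to the start site because they hold the matches, which are in capitals. The matches overlap no other motif searched.
P2ry12: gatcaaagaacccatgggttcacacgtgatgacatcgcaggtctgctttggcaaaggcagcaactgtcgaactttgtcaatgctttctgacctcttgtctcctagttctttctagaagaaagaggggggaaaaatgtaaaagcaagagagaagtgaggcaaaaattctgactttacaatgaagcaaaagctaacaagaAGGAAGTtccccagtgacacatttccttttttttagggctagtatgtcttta
Siglech: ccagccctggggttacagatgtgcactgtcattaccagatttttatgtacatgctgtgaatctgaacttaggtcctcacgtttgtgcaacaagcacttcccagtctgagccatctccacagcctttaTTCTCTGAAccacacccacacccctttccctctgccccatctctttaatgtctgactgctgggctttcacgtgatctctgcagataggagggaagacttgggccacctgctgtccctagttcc
In *P2ry12* 45 bases separate the match from the start site, and in *Siglech* 114 do.

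The genes lie on 8 chromosomes of the GRCm38 assembly, and all are protein coding. *P2ry13* (ENSMUSG00000036362) spans chr3:59207892-59210882 and *P2ry12* (ENSMUSG00000036353) chr3:59216272-59262871, both on the minus strand and inside *Med12l*, a gene of the plus strand. *Tgfbr1* (ENSMUSG00000007613) spans chr4:47353222-47414931 on the plus strand, *Tmem119* (ENSMUSG00000054675) chr5:113793729-113800516 on the minus strand and *Siglech* (ENSMUSG00000051504) chr7:55768178-55778925 on the plus strand. *Sall1* (ENSMUSG00000031665) spans chr8:89027235-89044162 on the minus strand, and *Csf1r* (ENSMUSG00000024621) lies at chr18:61100598-61132149 on the plus strand. *Gpr34* (ENSMUSG00000040229), at chrX:13632089-13640858 on the plus strand, lies inside *Cask*, a neuronal scaffold gene of the minus strand. The annotated span of *Cx3cr1* (ENSMUSG00000052336), chr9:119901616-120069879 on the minus strand, covers *Gorasp1*, *Csrnp1* and *Xirp1* on the same strand. Each of these 3 genes had 0 UMIs in all 52079 nuclei, so that reads from that interval were counted for *Cx3cr1* or for no gene.

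Of 56780 deposited barcodes, 54341 met the filters on UMIs, genes and mitochondrial RNA, and 52079 were kept once doublets were removed. Clustering without the 9 genes gave 54 clusters of 20 or more nuclei, and 2 of them were named microglia from other markers such as *C1qa*, *Inpp5d* and *Ctss*. They held 4383 nuclei with a median of 1472 UMIs each. Wt F1, F2, M1 and M2 gave 662, 515, 478 and 765 microglial nuclei, and Ifnar1-/- F1, F2, M1 and M2 gave 154, 438, 607 and 764. *Ifnar1* itself stood at 42.4 to 62.1 CPM (UMIs scaled to the same total in every library) in Wt microglia and 23.2 to 36.3 CPM in Ifnar1-/- microglia. Gene totals cannot tell which part of the gene, exon or intron, the remaining UMIs were read from. Any pair of libraries shared 3 to 30 barcodes.

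Several libraries stood apart. Ifnar1-/- M2 had 4.44% mitochondrial UMIs in microglia against 0.755% to 2.07% in the other 7 libraries. Ifnar1-/- F1 had the fewest microglia, and the minimum of 1000 UMIs left out 736 of its barcodes, so the share of microglia was not compared between groups. The larger microglial cluster (2562 nuclei, led by *Inpp5d*, *Mertk* and *Slco2b1*, beside *Siglech*) held 92.6% to 96.8% of the microglia of Wt F1, Wt F2, Ifnar1-/- F2 and Ifnar1-/- M2, and 78.6% of those of Ifnar1-/- F1. The smaller cluster (1821 nuclei, led by *C1qa*, *C1qb* and *Cst3*) held 88.6% to 89.8% of the microglia of Wt M1, Wt M2 and Ifnar1-/- M1. The clusters thus followed sex in 7 of 8 libraries, with Ifnar1-/- M2 on the side of the females.

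In microglia the 9 genes together took 82099 UMIs, between 1.03% and 1.42% of all microglial UMIs of a library. Every microglial nucleus held at least 1 UMI of them. With each nucleus thinned to 1000 UMIs, which no nucleus fell short of, 99.95% of nuclei still held at least 1, the median nucleus held 6 of the 9 genes, and 67.2% to 90.3% of nuclei per library held 5 or more. At this depth *Cx3cr1* was seen in a median of 89.1% of nuclei per library, *Csf1r* in 86.8%, *Tgfbr1* in 83.3% and *P2ry12* in 76.4%. *Gpr34* was seen in 67.4%, *Siglech* in 66.2%, *Tmem119* in 53.1%, *P2ry13* in 26.3% and *Sall1* in 21.7%. These shares rank detection per nucleus and are not levels per transcript length.

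The levels in each library are given next in CPM after TMM scaling, which adjusts library sizes for a few highly counted genes. *P2ry12* stood at 1533, 1371, 1696 and 1750 CPM in Wt F1, F2, M1 and M2, and at 2254, 1971, 2021 and 1624 CPM in Ifnar1-/- F1, F2, M1 and M2. The 3 other Ifnar1-/- libraries were above every Wt library, whereas Ifnar1-/- M2 fell within the Wt range. *P2ry13*, its neighbour on chromosome 3, stood at 269, 267, 264 and 385 CPM in the Wt libraries and at 414, 430, 417 and 213 CPM in the Ifnar1-/- libraries, in the same order. *Gpr34* stood at 1149, 978, 1063 and 1488 CPM in Wt and at 1729, 1609, 1673 and 739 CPM in Ifnar1-/-. In both genes Ifnar1-/- M2 was the lowest of all 8 libraries and the other Ifnar1-/- libraries were the 3 highest.

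*Cx3cr1*, the fractalkine receptor, stood at 2794, 2376, 2013 and 2568 CPM in Wt and at 3359, 3241, 2579 and 2489 CPM in Ifnar1-/-. The females of Ifnar1-/- were the highest, and the males of both genotypes overlapped. *Csf1r* ranged from 1857 to 2558 CPM in Wt and from 2059 to 2724 CPM in Ifnar1-/-, a gene whose groups overlapped widely. *Tgfbr1* stood at 2662, 2553, 1460 and 2034 CPM in Wt and at 2050, 2450, 2112 and 2092 CPM in Ifnar1-/-, so that the Wt libraries enclosed all Ifnar1-/- libraries. *Tmem119* ranged from 556 to 952 CPM in Wt and from 585 to 877 CPM in Ifnar1-/-. *Siglech*, the lectin gene, stood at 1410, 1346, 968 and 913 CPM in Wt and at 1161, 1616, 1135 and 1219 CPM in Ifnar1-/-. *Sall1* stood at 292, 313, 193 and 155 CPM in Wt and at 241, 316, 233 and 249 CPM in Ifnar1-/-, and in both genes the 2 Wt males were the lowest of all libraries.

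**Figure D1:**
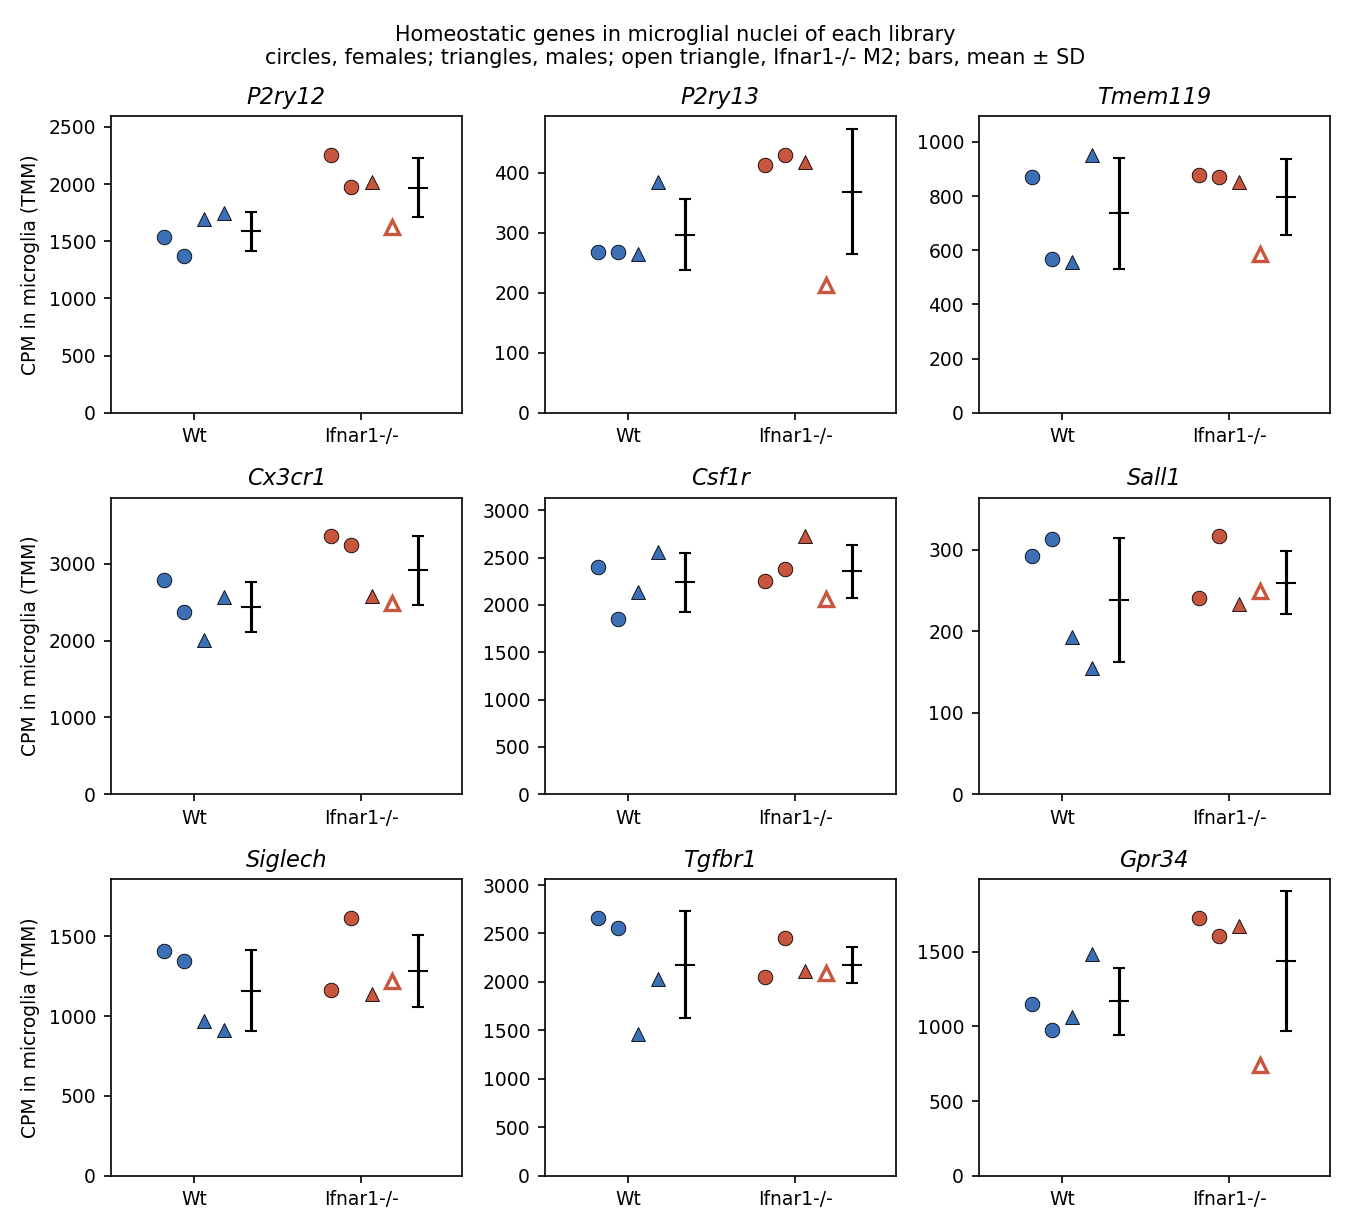
Level of each gene in microglia (vertical axis, CPM after TMM scaling, from 0) in each of the 4 Wt and 4 Ifnar1-/- libraries, with females as circles, males as triangles, Ifnar1-/- M2 as an open triangle, and the mean ± SD beside each group. Ifnar1-/- M2 is the lowest point for *P2ry13* and *Gpr34*, at 213 and 739 CPM.

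None of the 9 genes passed the test between the genotypes in microglia. With edgeR's quasi-likelihood test and Benjamini-Hochberg adjustment over all 9554 genes tested, among them all 9, 0 of the 9 passed an adjusted p of 0.05, where 0.105% of all genes did. In edgeR with genotype alone 0 of the 9 had an unadjusted p under 0.05, and in DESeq2 0 passed and 1 did so unadjusted. With sex as a covariate in edgeR 0 passed and 1 did so unadjusted, where 14 of all genes passed. All 9 estimates were then above 0, with a median of 0.21. With the replicate block all 9 were above 0 too, with a median of 0.20, and 0 had an unadjusted p under 0.05. The largest difference, that of *P2ry12*, was a log2 fold change of 0.31 (standard error 0.17, 95% interval -0.06 to 0.67, adjusted p = 1.00), from 1587 ± 171 CPM in Wt to 1967 ± 260 CPM in Ifnar1-/- (SD, n = 4 each). For *P2ry13* it was 0.30 (interval -0.21 to 0.80), for *Gpr34* 0.29 (-0.27 to 0.86) and for *Cx3cr1* 0.26 (-0.14 to 0.66). *Siglech* (0.15), *Sall1* (0.13), *Tmem119* (0.11) and *Csf1r* (0.07) differed less, and *Tgfbr1* was at -0.00094 with an interval of -0.45 to 0.45. The intervals leave room for changes of the size shown by their ends, and the median over the 9 genes was 0.15 against -0.0027 over all genes tested, and ran from 0.074 without Ifnar1-/- F2 (0.084 without Wt M1) to 0.25 without Wt F1 or Wt M2.

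Without Ifnar1-/- M2, the library with the raised mitochondrial share, *Gpr34* differed by 0.51 (standard error 0.19, interval 0.09 to 0.93) and *P2ry13* by 0.50 (standard error 0.18, interval 0.10 to 0.90), and 0 of the 9 genes passed the adjusted threshold. *P2ry12*, *P2ry13* and *Gpr34* were higher in each of the 3 remaining Ifnar1-/- libraries than in any Wt library, as were 1.57% of all genes tested, and 0 of the 9 were lower in each, against 1.83%. With all 8 libraries 0 of the 9 genes were free of overlap in that direction, against 0.523% of all genes, and 0 in the other, against 1.03%. Leaving out this library was a choice made after the values were seen. The part of its mitochondrial share in these values was not tested.

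**Figure D2:**
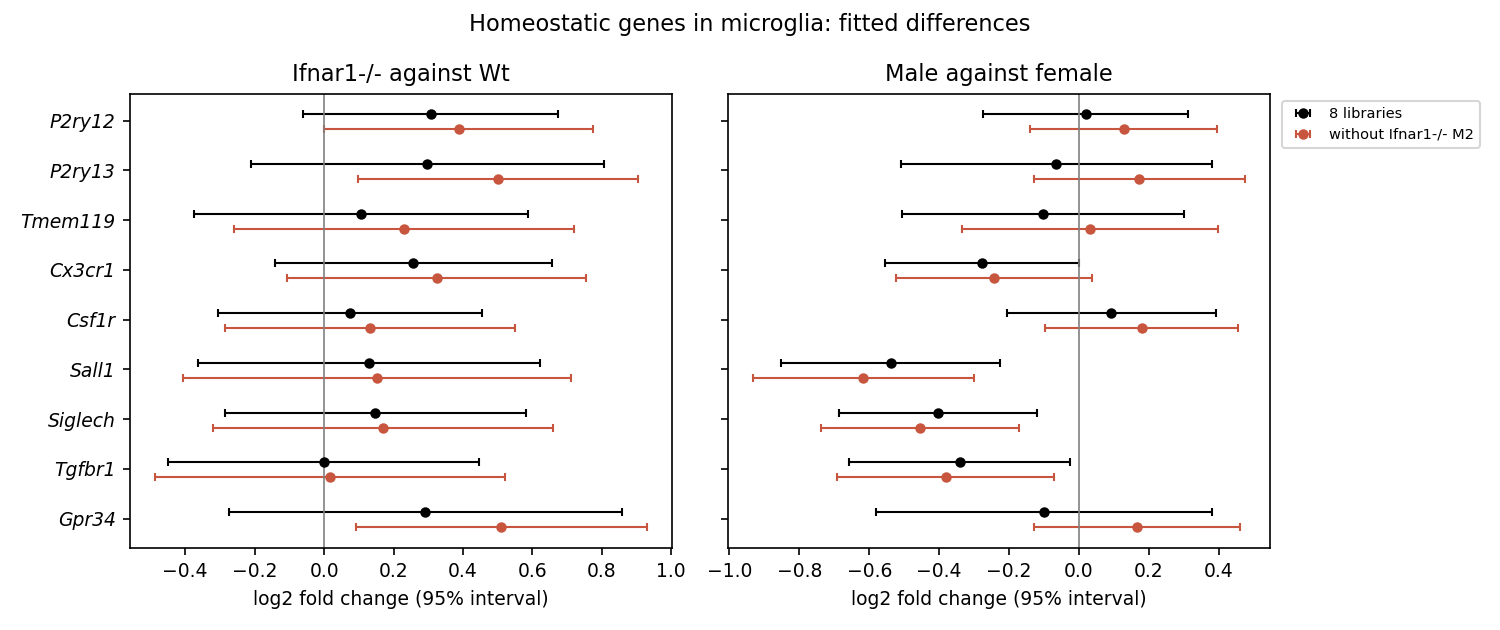
Fitted log2 fold change of each gene in microglia (horizontal axis) with its 95% interval for Ifnar1-/- against Wt (left) and male against female (right), from all 8 libraries (black) and without Ifnar1-/- M2 (red). Every genotype interval from 8 libraries spans 0, and the sex intervals of *Sall1*, *Siglech* and *Tgfbr1* lie below 0.

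Between the sexes, *Sall1* and *Siglech* passed the test and were lower in males on average. The labels used here give no batch or processing day, so in every comparison of the sexes sex and any such batch cannot be told apart. *Sall1* fell by 0.54 on the log2 scale (standard error 0.15, edgeR adjusted p = 0.0195) from 290 ± 34.8 CPM in females to 208 ± 41.9 CPM in males (SD, n = 4 each), and *Siglech* fell by 0.40 (standard error 0.13, edgeR adjusted p = 0.0449) from 1383 ± 188 to 1059 ± 143 CPM. *Tgfbr1* differed by -0.34 (edgeR adjusted p = 0.119) and *Cx3cr1* by -0.28 (edgeR adjusted p = 0.15), and the other 5 genes lay between -0.10 and 0.09. These 2 calls of 9 stand against 19.7% of all genes tested that passed between the sexes. Whether the shares differ was not tested. In 0 of the 9 genes were the sexes free of overlap, where 9.87% of all genes were higher and 10.6% lower in every male than in every female. Within Ifnar1-/- the sexes overlapped for *Sall1*, at 241 CPM in F1 and 249 CPM in M2. They also did for *Siglech*, at 1161 CPM in F1 and 1219 CPM in M2. Both calls were lost when any 1 of several libraries was left out, while the direction stayed the same. The estimate without 1 library ran from -0.63 to -0.41 for *Sall1* and from -0.51 to -0.32 for *Siglech*. *Sall1* did not pass without Wt F1, Wt F2, Wt M1, Wt M2 or Ifnar1-/- F2 (edgeR adjusted p from 0.0635 to 0.107), nor *Siglech* without any of these or Ifnar1-/- M1 (0.0849 to 0.261) or in DESeq2 (0.0619).

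The clusters and the RNA of other cells in microglia were also set against sex. The 10 GABAergic neuron markers summed to 401 to 464 CPM in male microglia and 174 to 371 CPM in female microglia. The 8 glutamatergic markers summed to 549 to 845 CPM in males and 172 to 551 CPM in females, with Ifnar1-/- M2 the highest. Oligodendrocyte markers summed to 379 to 900 CPM in males and 253 to 638 CPM in females, and astrocyte markers to 295 to 650 and 306 to 464 CPM. The sexes overlapped for every list of markers except the GABAergic one. All GABAergic, glutamatergic, oligodendrocyte and astrocyte markers listed were detected in microglia. Their part in the sex difference was not tested. Within the larger microglial cluster *Sall1* differed by -0.53 (edgeR adjusted p = 0.0788) and *Siglech* by -0.37 (edgeR adjusted p = 0.108), and *Cx3cr1* by -0.47 (edgeR adjusted p = 0.0268). There 629 of the 6835 genes tested passed. Wt M1, Wt M2 and Ifnar1-/- M1 gave only 53, 87 and 62 nuclei to that cluster, against 718 from Ifnar1-/- M2. Within the smaller cluster, in the 7 libraries with 20 or more of its nuclei, *Sall1* differed by -0.49 (edgeR adjusted p = 0.481) and *Siglech* by -0.20 (edgeR adjusted p = 0.688).

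The difference between the genotypes was also compared between the sexes. *P2ry12* averaged 1452 CPM in Wt females and 2112 in Ifnar1-/- females, and 1723 and 1823 CPM in the males. *Sall1* averaged 302 and 279 CPM in the females, and 174 and 241 in the males. The interaction of genotype and sex passed for 0 of the 9 genes and for 0% of all 9554 genes tested in edgeR, 221 of which had an unadjusted p under 0.05, and for 0 genes in DESeq2. The interaction estimates were 0.55 (standard error 0.27) for *Sall1* and -0.73 for both *P2ry13* (standard error 0.39) and *Gpr34* (standard error 0.43), each with a 95% interval that included 0.

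The 2 microglial clusters also differed in the 9 genes within a library, as a description of clusters and with no test. *Cx3cr1* was higher in the smaller cluster in 8 of 8 libraries, with a median log2 ratio of 0.24. *Csf1r* (0.35), *Tmem119* (0.43), *Gpr34* (0.38) and *P2ry13* (0.18) were higher there in 7 of 8 libraries, and *P2ry12* (0.30) in 6 of 8. *Tgfbr1* was higher there in 2 of 8 libraries, and *Sall1* and *Siglech* in 3 of 8, with median log2 ratios from -0.08 to -0.04.

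Across the cell classes the 9 genes were not equally restricted to microglia. Without the TMM scaling, and summed over libraries, microglia held 93.4% of all *Siglech* UMIs in the kept nuclei, 91.8% of *Tmem119*, 89.8% of *Csf1r*, 83.7% of *P2ry13* and 73.3% of *Gpr34*. They held 70.3% of *Tgfbr1*, 64.4% of *Cx3cr1*, 63.0% of *Sall1* and 36.1% of *P2ry12* UMIs. The shares depend on how many nuclei of each class were captured and on their depth, and levels in CPM are given next.

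*P2ry12* stood at 1666 CPM in microglia and 54.2 CPM in glutamatergic neurons, where 35.9% of nuclei held a UMI at a median depth of 8837 UMIs. Thinned to 1000 UMIs, a median of 5.71% of glutamatergic nuclei per library held a *P2ry12* UMI, against 76.4% of microglia and 1.24% of oligodendrocytes. Its level in glutamatergic neurons was 3.25% of that in microglia, and over the 20 other microglial markers this figure had a median of 0.123% and a highest value of 4.25%. *Csf1r*, at 2248 CPM in microglia, stood at 2.76 CPM in glutamatergic neurons (0.123%), and *Siglech* at 1197 and 0.90 CPM (0.0752%). *Tmem119* (0.117%) and *Sall1* (0.128%) also lay near the markers' median, and *P2ry13* (0.279%), *Gpr34* (0.616%), *Tgfbr1* (0.694%) and *Cx3cr1* (0.869%) above it.

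**Figure D3:**
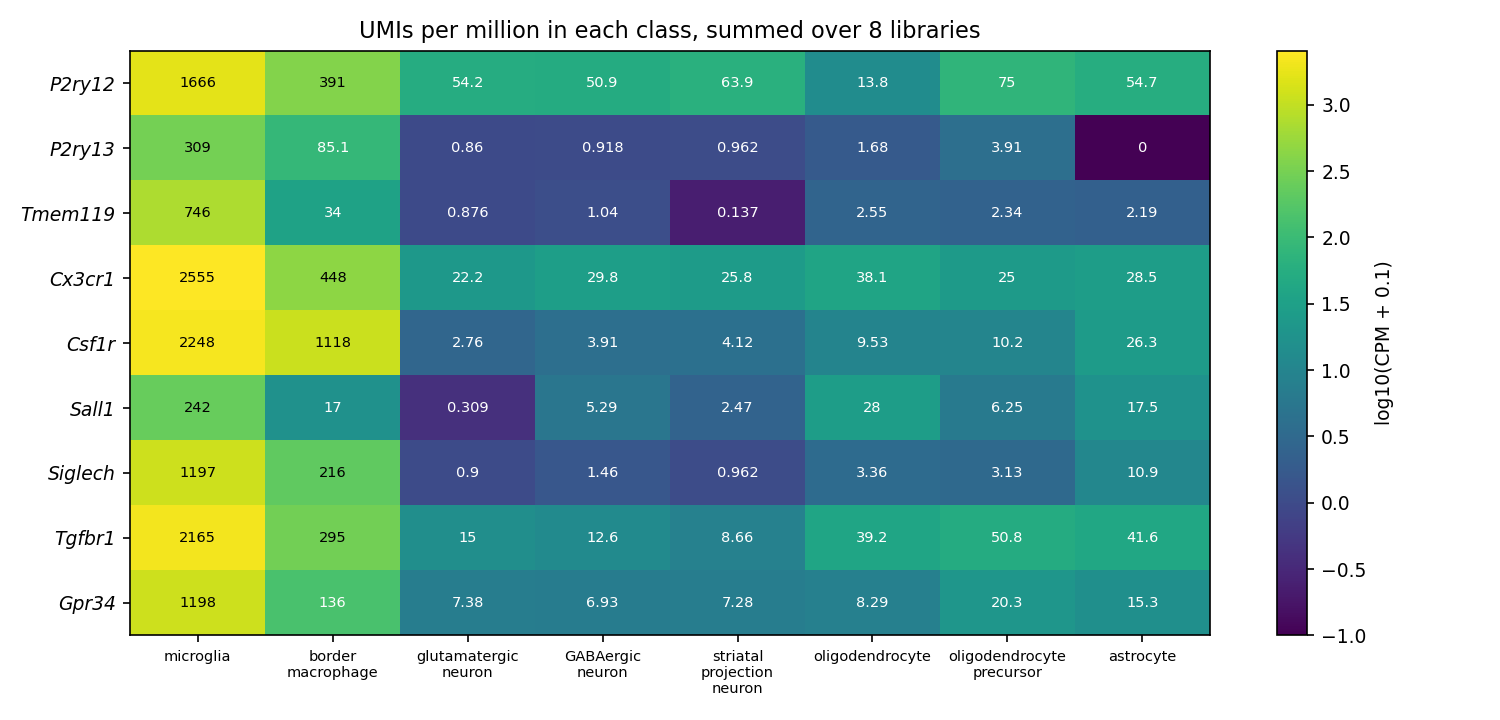
Level of each gene (rows) in each cell class (columns) in CPM summed over the 8 libraries, printed in the cells and coloured by log10(CPM + 0.1). Border macrophages follow microglia for every gene except *Sall1*, whose second highest class is oligodendrocytes at 28.0 CPM.

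The make-up of these UMIs differed between classes in each library. *P2ry12* made up 11.5% to 16.4% of the 9 genes' UMIs in microglia, 42.3% to 60.1% in glutamatergic neurons and 36.5% to 53.9% in GABAergic neurons. *Csf1r* made up 15.7% to 20.6% in microglia and 1.35% to 5.31% in glutamatergic neurons. *Med12l*, which lies opposite *P2ry12* and *P2ry13*, stood at 178 CPM in glutamatergic neurons, 157 in GABAergic neurons and 29.8 in oligodendrocytes, an order shared by *P2ry12* (54.2, 50.9 and 13.8 CPM). *P2ry13*, opposite the same gene, stood at 0.860, 0.918 and 1.68 CPM. The part of *Med12l* in the neuronal *P2ry12* counts was not tested. By library, *P2ry12* in glutamatergic neurons stood at 58.4, 61.8, 33.2 and 36.4 CPM in Wt and 103, 68.6, 31.6 and 51.9 CPM in Ifnar1-/-. The females were the 4 highest, with Ifnar1-/- F1 on top. The sexes were not tested in this class, and the share of all genes that separate them there was not counted.

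Oligodendrocytes had another make-up. *Sall1* stood at 28.0 CPM there (17.1 to 36.1 CPM per library), 11.5% of its microglial level, against 0.309 CPM in glutamatergic neurons and 5.29 CPM in GABAergic neurons. It made up 12.2% to 23.1% of the 9 genes' UMIs in oligodendrocytes and 1.21% to 2.69% in microglia. *Tgfbr1* (39.2 CPM, 1.81% of its microglial level) and *Cx3cr1* (38.1 CPM, 1.49%) followed. Over the 20 other microglial markers the median was 0.406% in oligodendrocytes and the highest value 2.69%, above both of these genes. Thinned to 1000 UMIs, a median of 3.02% of oligodendrocytes per library held a *Sall1* UMI, 0.0265% of glutamatergic neurons and 0.738% of GABAergic neurons.

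**Figure D4:**
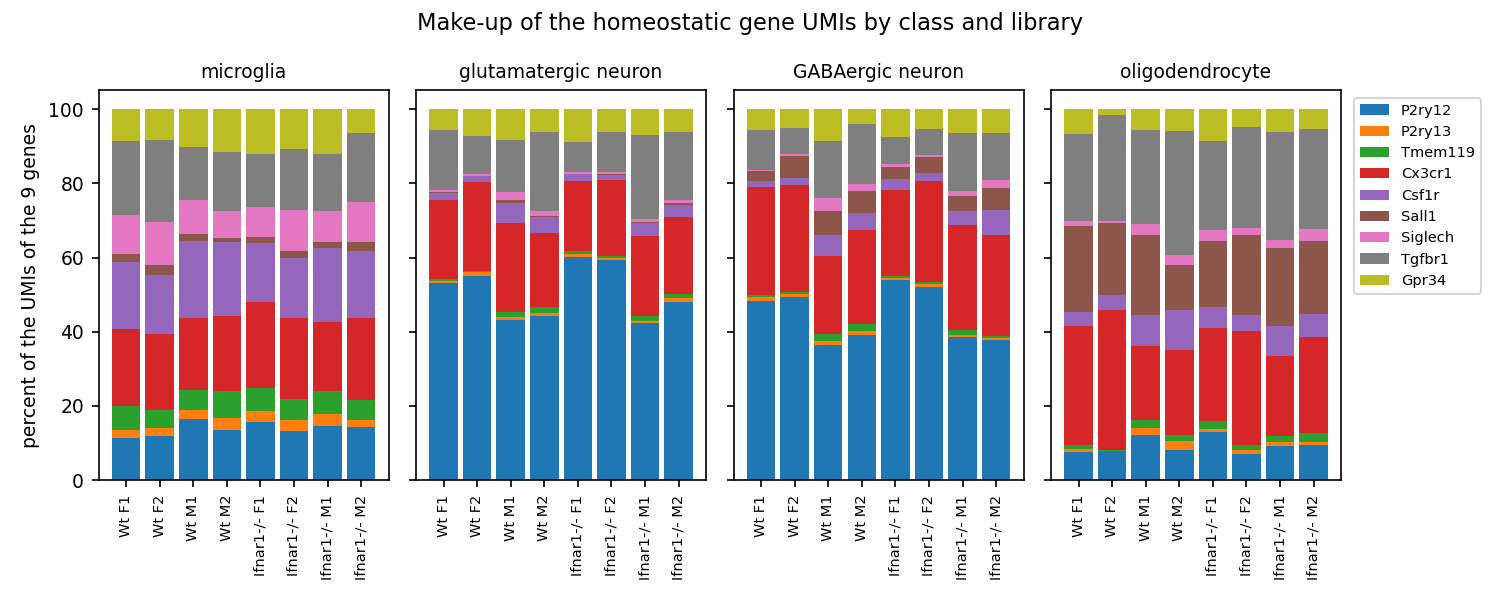
Share of each gene (coloured segments) in the UMIs of the 9 genes (vertical axis, percent) in each of the 8 libraries, for microglia, both neuron classes and oligodendrocytes. *P2ry12* takes 42.3% to 60.1% in glutamatergic neurons and 11.5% to 16.4% in microglia, and *Sall1* 12.2% to 23.1% in oligodendrocytes.

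Border macrophages, the related cells of the meninges and vessel spaces, formed 1 cluster of 97 nuclei led by *Mrc1*, *Cd74* and *Lyz2*. *Csf1r*, on which macrophages of many tissues depend, stood there at 1118 CPM, 49.7% of its microglial level. *P2ry13* reached 27.6% of the microglial level, *P2ry12* 23.5%, *Siglech* 18%, *Cx3cr1* 17.5%, *Tgfbr1* 13.6% and *Gpr34* 11.4%. *Sall1* had 3 UMIs (7.02%) and *Tmem119* had 6 UMIs (4.56%). No genotype test was made in this class, in which 1 library had 20 or more nuclei, nor in astrocytes, with 3 such libraries. In microglia the border macrophage markers summed to 241 to 300 CPM in Wt and 238 to 337 CPM in Ifnar1-/-, and 8 of 9 were detected, with *Lyve1* at 0.

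In the other classes the genotypes were compared for the genes that passed the filter on low counts, by edgeR's test over all genes of each class. In glutamatergic neurons 8 of the 9 genes were tested and 0 passed, where 0.0595% of all genes did, with *P2ry12* at 0.44 (standard error 0.37, 95% interval -0.40 to 1.28). In GABAergic neurons 7 were tested and 0 passed (background 0.0271%), and in oligodendrocytes 6 were tested and 0 passed (0.0631%). In striatal projection neurons 2 were tested and 0 passed (0.0335%), and in oligodendrocyte precursors 1 was tested and 0 passed (0%, with 141 genes of 3675 at an unadjusted p under 0.05 and 1 called by DESeq2). Over all nuclei together 0 of the 9 passed (0.0501%). In edgeR with genotype alone 0 of the members tested in any of these classes had an unadjusted p under 0.05. With sex as a covariate 2 did in GABAergic and 1 in glutamatergic neurons, and with the replicate block 1 did in glutamatergic neurons and 1 over all nuclei. DESeq2 called 0 members in each class and had 1 at that unadjusted level, in striatal projection neurons. In tissue summed over all nuclei, fewer microglia and less RNA per microglial nucleus cannot be told apart.

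The ligands of the member receptors lay in different classes. *Cx3cl1* stood at 172 CPM in glutamatergic neurons, 116 in GABAergic neurons and 58.4 in microglia. *Il34*, the neuronal ligand of CSF1R, stood at 45.9 CPM in glutamatergic neurons and 42.3 in GABAergic neurons against 9.31 in microglia and 7.35 in oligodendrocytes. *Csf1*, the other ligand, stood at 104 CPM in oligodendrocytes and 4.78 in glutamatergic neurons. *Tgfb1* stood at 226 CPM in microglia and 0.349 CPM in glutamatergic neurons, *Tgfb2* was highest in astrocytes at 43.8 CPM (20 UMIs), and *Tgfb3* stood at 22 CPM in GABAergic neurons and 21.4 in oligodendrocytes. Between the genotypes, 0 of the 3 ligand genes that could be tested in microglia passed, with *Tgfb1* at a log2 fold change of -0.01 and *Cx3cl1* at 0.22. The third, *Csf1*, named here after its values were seen, was at -1.26 (standard error 0.40, edgeR adjusted p = 1.00, unadjusted p = 0.00811). It stood at 16.8 to 21.9 CPM in the Wt libraries and 2.49 to 11.6 CPM in those of Ifnar1-/-, which did not overlap, on 91 UMIs in all. Of all genes tested in microglia, 1.03% were lower in every Ifnar1-/- library than in every Wt library.

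Other genes of the same pathways were read from lists. Of the TGF-beta signal genes 11 were tested in microglia and 0 passed between the genotypes (median log2 fold change 0.10), including *Tgfbr2*, the partner of *Tgfbr1*, at 0.05. Between the sexes 1 was higher and 4 were lower in males. *Smad7*, the feedback inhibitor of TGF-beta receptors, rose by 1.33 (edgeR adjusted p = 0.000251), and the corepressor genes *Ski* (-0.50) and *Skil* (-0.42), the milieu molecule gene *Nrros* (-0.38) and the receptor gene *Acvr1* (-0.43) fell. Of the microglial transcription factors 10 were tested and 0 passed between the genotypes (median 0.07). Between the sexes *Mef2a* (-0.50), *Mef2c* (-0.51) and *Fli1* (-0.44) were among those that passed, and were lower in males. The same background of 19.7% applies to these sex calls.

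Among 30 other homeostatic genes 1 passed between the genotypes and the median was 0.02. *Fcrls*, an Fc receptor-like gene used as a microglial marker in mice, was higher in Ifnar1-/-. It stood at 443, 419, 556 and 705 CPM in the Wt libraries F1, F2, M1 and M2 without TMM scaling, and at 1896, 1605, 2191 and 1033 CPM in those of Ifnar1-/-. The groups did not overlap, and 0.523% of all genes tested were higher in every Ifnar1-/- library. The log2 fold change was 1.67 (standard error 0.26, edgeR adjusted p = 0.0422). The complement gene *C1qa*, with 32781 UMIs, differed by -0.04, and *Cst3*, with 189732 UMIs, by -0.22, and neither passed. Between the sexes 2 of the 30 passed, against 19.7% of all genes, with *Gas6* (0.96) higher and *Golm1* (-0.59) lower in males.

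Of the disease-associated microglia genes, which rise when microglia leave the homeostatic state, 16 were tested and 0 passed between the genotypes, with 4 above and 12 below 0 and a median of -0.09. *Cd9* differed by -0.05 and *Ctsl* by -0.08. Between the sexes 4 of the 16 passed, against the 19.7% of all genes. *Apoe* (2.16), *Fth1* (3.12) and *Timp2* (0.92) were higher and *Ctsd* (-1.10) was lower in males. *Fth1* stood at 1627 CPM in Ifnar1-/- M2 against 17.4 to 567 CPM in the other libraries, and *Apoe* at 67.0 to 311 CPM in the females against 355 to 759 CPM in the males. Of the other purinergic receptors 4 were tested and 0 passed in either comparison, with *P2ry6* at -0.25 and *P2rx7* at 0.05 between the genotypes.

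Other genes had nearly the same distribution over classes. Over 51 points, each a class in a library with 20 or more nuclei, the mean log2(CPM + 1) of the 9 genes was followed most closely by *Pld4* (Pearson r = 0.984), *Il21r* (0.983), *Vav1* (0.982), *Gm34280* (0.982) and *Themis2* (0.980), among 20952 genes with at least 50 UMIs. The r of the members with their own mean, which contains them, ran from 0.863 for *Sall1* and 0.885 for *P2ry12* to 0.986 for *Tmem119*. These values describe the contrast of microglia with the other classes, and points of 1 library share its depth.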

How the data were processed

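Nuclei of snap-frozen cortex were sequenced with the Single Cell 3′ v3 chemistry, 1 library per mouse. Per the file headers the authors counted UMIs with Cell Ranger 3.1.0, and per the labels on mm10. They deposited raw UMI counts per gene and barcode, 44063346 to 58423423 UMIs per library, before their own filters. The authors' cell classes were not used here.

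Nuclei were kept with more than 200 and fewer than 6000 genes, more than 1000 UMIs and under 10% mitochondrial UMIs, and doublets called by Scrublet (2262) were removed. Clusters (Leiden, resolution 1, 40 principal components of 3000 variable genes without the 9 genes, scanpy 1.11.5) were named from markers other than the 9 genes. The scoring rule of the naming was set after seeing the clusters. It left 1 cluster of 136 nuclei with microglial and neuronal markers unnamed (39 Wt and 97 Ifnar1-/-, 81 of them from Ifnar1-/- F1). UMIs were summed per class and library and tested with edgeR 4.0.16 (quasi-likelihood, TMM, filterByExpr, genotype alone, or genotype and sex for the sex comparison), with Benjamini-Hochberg adjustment over all genes of a comparison and a threshold of 0.05. DESeq2 1.42.0 was an alternative. In counts simulated for the genotype comparison in microglia (9554 genes), 92% of 4-fold rises (log2 fold change of 2), 74% of falls by 2 on the log2 scale, and 42% and 20% at 1 and -1 were called.

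F1, F2, M1 and M2 appear in both genotypes. The deviations of same-labelled libraries from their genotype means correlated over 1000 genes at 0.50, 0.74, 0.72 and 0.39. Libraries of the same sex with other numbers correlated at 0.45 and 0.76 in females and at 0.49 and 0.80 in males. These values follow sex and do not show that the labels pair the mice. The main test took no pairs, and the replicate block was an alternative. Each library is a separate mouse. The members and all lists were chosen with earlier results of these data known. Text names all 9 members, the genes of each other list that passed a test or were its 2 most counted, and the 5 genes most like the members' mean. A gene that passed by this rule is not reported here. Gene positions come from GENCODE vM21, which is not the annotation release the counts used. The spread between libraries, not the counting error, sets the precision given.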

Additional observations from a re-analysis of the deposited data

Results flagged for a closer look

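For each of the 9 genes the 4 libraries of each genotype were checked for 1 that lay far from the other 3 in microglia. By Dixon's test at the 95% level 5 of 18 groups had one. Chance gives about 1 in 20 among independent groups, but these 18 share the same 8 libraries. The share of all genes flagged in this way was not counted, so the count is not a result about the 9 genes. Ifnar1-/- M2 lay apart from the other Ifnar1-/- libraries for *P2ry13* (213 CPM), *Tmem119* (585 CPM) and *Gpr34* (739 CPM), being the lowest each time. Wt M2 was high for *P2ry13* (385 CPM), and Ifnar1-/- F2 was high for *Tgfbr1* (2450 CPM).

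Barcodes at or under the minimum of 1000 UMIs, which no comparison used, also held UMIs of the 9 genes. In Ifnar1-/- F1 there were 736 such barcodes with 5984 UMIs of the 9 genes, or 9873 CPM. The corresponding barcodes stood at 1230 to 7352 CPM in the Wt libraries. In Ifnar1-/- F2, M1 and M2 they stood at 1773, 4631 and 1110 CPM, so the high level was that of 1 library. The microglia of Ifnar1-/- F1 stood at 13461 CPM. With a minimum of 500 UMIs Ifnar1-/- F1 had 725 microglial nuclei in place of 154.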

How the results depend on the processing

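No alternative tried for the genotype comparison, in any class, brought 1 of the 9 genes past the threshold. In microglia the number of all genes called between the genotypes, 10, became 16 with DESeq2, 22 without the filter on low counts, 17 with the replicate block (F1, F2, M1 and M2 as pairs), 4 in the larger and 1 in the smaller microglial cluster, and 3 to 10 without 1 library. The cause of these shifts was not tested. *Tgfbr1*, near 0, turned positive with sex as a covariate (0.030), with the replicate block (0.036), with the 9 genes kept in the clustering (0.0020), with a minimum of 500 UMIs (0.027) and with nuclei thinned to 1000 UMIs (0.019), and ran from -0.14 to 0.11 without 1 library. In the smaller cluster *Tmem119* was at -0.068 and *Csf1r* at -0.042. Without 1 library *Tmem119* ran from -0.0019 to 0.25, *Csf1r* from -0.0034 to 0.14 and *Sall1* from -0.036 to 0.30.

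Between the sexes 1 of the 9 genes passed with DESeq2, 1 with library totals in place of TMM, 1 with thinned nuclei, 1 in the larger cluster (where 629 genes were called) and 0 in the smaller (16 genes). Without 1 library 0 to 2 passed and 847 to 2197 genes were called. In the larger cluster *P2ry12* was at -0.25 and *Csf1r* at -0.19. Without 1 library *P2ry12* ran from -0.040 to 0.13, *P2ry13* from -0.27 to 0.17, *Tmem119* from -0.32 to 0.033 and *Gpr34* from -0.28 to 0.17. The restriction to 1 cluster was chosen after seeing the data. In the smaller cluster 1 library fell out for too few nuclei.

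In the other classes 0 of the 9 genes passed under every alternative, while their estimates and the number of all genes called moved. Over all nuclei the median of the 9 genes, -0.00096 with 4 of 9 above 0, was 0.15 with 9 of 9 above 0 without Ifnar1-/- F1, -0.19 with 1 of 9 without Wt M1 and -0.26 with 2 of 9 without Ifnar1-/- M2. In oligodendrocyte precursors the 1 gene tested, *P2ry12*, went from 0.056 to -0.17 with sex as a covariate and -0.61 with the replicate block. The number of genes called over all nuclei was 43 with DESeq2, 22 with sex as a covariate and 4 to 7 without 1 library, in glutamatergic neurons 42, 25 and 4 to 9, and in GABAergic neurons 18, 10 and 2 to 5. In oligodendrocytes it was 15 with DESeq2, 11 without the filter, 17 with sex as a covariate, 14 with the replicate block and 2 to 7 without 1 library. In striatal projection neurons these were 5, 11, 8, 8 and 0 to 3, and in oligodendrocyte precursors 1, 16, 1, 4 and 0 to 1. The replicate block changed no call of the 9 genes. The summed level of the 9 genes in microglia, 12381 ± 1340 CPM (SD over 8 libraries), was 12387 CPM with the 9 genes kept in the clustering, 12386 CPM with doublets kept and 12241 CPM with a minimum of 500 UMIs. Few nuclei in border macrophages and astrocytes limit what could be compared there.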
